A study of Schizosaccharomyces pombe with 6 samples.

Results

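The genes described here are those with which fission yeast (*Schizosaccharomyces pombe*) takes up, stores and senses copper and zinc. There are 9 of them among the 6988 loci of the deposited count table, taken from it by their systematic IDs: *ctr4* (SPCC1393.10), *ctr5* (SPAC1142.05), *ctr6* (SPBC23G7.16) and *cuf1* (SPAC31A2.11c) for copper, and *zrt1* (SPBC16D10.06), *zhf1* (SPAC23C11.14), *loz1* (SPAC25B8.19c), *zym1* (SPAC22H10.13) and *fet4* (SPBP26C9.03c) for zinc. Poly(A)+ RNA came from *siw14*∆ cells, in which the gene for the inositol pyrophosphate pyrophosphatase Siw14 is replaced by a hygromycin resistance marker (*siw14*∆::HygMX), and from the wild-type parent. Both strains have the h- mating type, and each is a single strain grown as 3 biological replicates to log phase in YES, a rich medium, at 30 °C. Copper and zinc were neither added nor withheld, so the comparison asks whether loss of Siw14 alters these mRNAs in this medium. A difference between the pair of strains other than the deletion cannot be told apart from it. The *siw14* mRNA had 13, 12 and 14 counts in the *siw14*∆ libraries, against 2014, 2414 and 2377 counts in the wild-type libraries.

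Yeast cells keep copper and zinc within narrow limits, because both are enzyme cofactors that are toxic in excess. In fission yeast, Ctr4 and Ctr5 assemble into one copper transporter of the plasma membrane, Ctr6 releases copper from the vacuole, and Cuf1 is the copper-sensing transcription factor that switches the transporter genes on when copper is scarce. Zrt1 carries zinc into the cell, Zhf1 moves it into the endoplasmic reticulum, Zym1 is a metallothionein that binds zinc in the cytosol, and Fet4 is a low-affinity transporter of iron and zinc. Loz1 is a zinc-finger protein that represses *zrt1* and other genes when zinc is plentiful.

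Because both regulators, Cuf1 and Loz1, are among the genes measured, the 250 bases upstream of one target of each are shown, read 5′ to 3′ on the gene's own strand. They are the RefSeq sequence of assembly ASM294v3 (*ctr5* at chrI:3635159-3635408 and *zrt1* at chrII:3606927-3607176, both plus strand), which is not the assembly on which the reads were counted. Capitals mark matches to the copper-signaling element of Cuf1 in *ctr5* and to the Loz1 response element in *zrt1*.
ctr5: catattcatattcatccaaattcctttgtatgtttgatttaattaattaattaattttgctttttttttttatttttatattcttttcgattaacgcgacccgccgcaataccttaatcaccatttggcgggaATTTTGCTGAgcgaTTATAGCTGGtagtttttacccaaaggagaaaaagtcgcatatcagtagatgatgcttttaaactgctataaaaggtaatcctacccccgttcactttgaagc
zrt1: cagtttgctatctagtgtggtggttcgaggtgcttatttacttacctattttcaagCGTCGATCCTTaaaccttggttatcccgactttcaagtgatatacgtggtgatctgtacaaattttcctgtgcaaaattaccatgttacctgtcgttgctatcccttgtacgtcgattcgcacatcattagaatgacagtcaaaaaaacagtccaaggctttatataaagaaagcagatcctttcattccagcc
The capitals of *ctr5* begin 117 and 103 bases before its annotated transcript start, and those of *zrt1* begin 194 bases before it. Both strands were searched for each motif from 250 bases before to 50 bases after each start, and matches to the 2 motifs did not overlap. The copper-signaling element also matched once in the window of *ctr6* (52 bases before the start) and once in that of *cuf1* (247 bases before, opposite strand), and *ctr5* held one more match past its start. It is a short and loose pattern that 25.9% of 5112 coding-gene windows held, whereas the Loz1 response element was held by 0.372% of them and, among the 9 genes, by *zrt1* alone. The *ctr4* window, whose annotated transcript begins at the coding start, held neither motif. A match is a match of letters only.

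The libraries held 12875286 to 14583056 counts on named loci. The first principal component of all loci (60.7% of the variance) placed the *siw14*∆ libraries at 13.4 or above and the wild-type libraries between -31.2 and -3.61, with wild-type replicate 1 farthest out. The median coefficient of variation among replicates over all loci was 7.83% in *siw14*∆ cells and 12.5% in wild-type cells.

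None of the 9 copper and zinc genes was called as changed in *siw14*∆ cells. All 9 passed the filter on low counts, and with p-values adjusted over the 5774 loci that passed, edgeR's quasi-likelihood test found 0 higher and 0 lower at the 0.05 threshold. Of all loci tested, 21.7% were called, 16.7% as higher and 4.99% as lower. At an unadjusted p under 0.05 the count was 1 of 9 (*zhf1*), beside 41.1% of all loci, and the libraries of the strains did not overlap for 2 of 9 (*zrt1* and *zhf1*), beside 46.9% of all loci. DESeq2 called 1 of the 9, *zhf1*, beside 29.5% of all loci, and limma-voom called 0, beside 21.6%. In bulk RNA, a change in the RNA of each cell and a change in the number of cells that express a gene cannot be told apart.

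The fold changes were small. The log2 fold change (*siw14*∆ over wild type) was below 0 for 8 of the 9 genes and above 0 for *fet4*, and ran between -0.25 and 0.06 with a median of -0.15, beside a median of 0.01 over all loci. With scaling by library totals alone, the median over all loci moved to 0.18 and that of the 9 genes to 0.02, with 6 of them above 0, so the sign of most of these differences rests on the scaling. The 95% interval of the fold change lay inside a 2-fold change in either direction for 9 of 9 genes, as it did for 81.8% of all loci, and inside 1.5-fold for 8 of 9, all but *zym1*, beside 52.6% of all loci. A change of more than 2-fold in any of these mRNAs therefore lay outside its interval in the fit reported here.

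**Figure D1:**
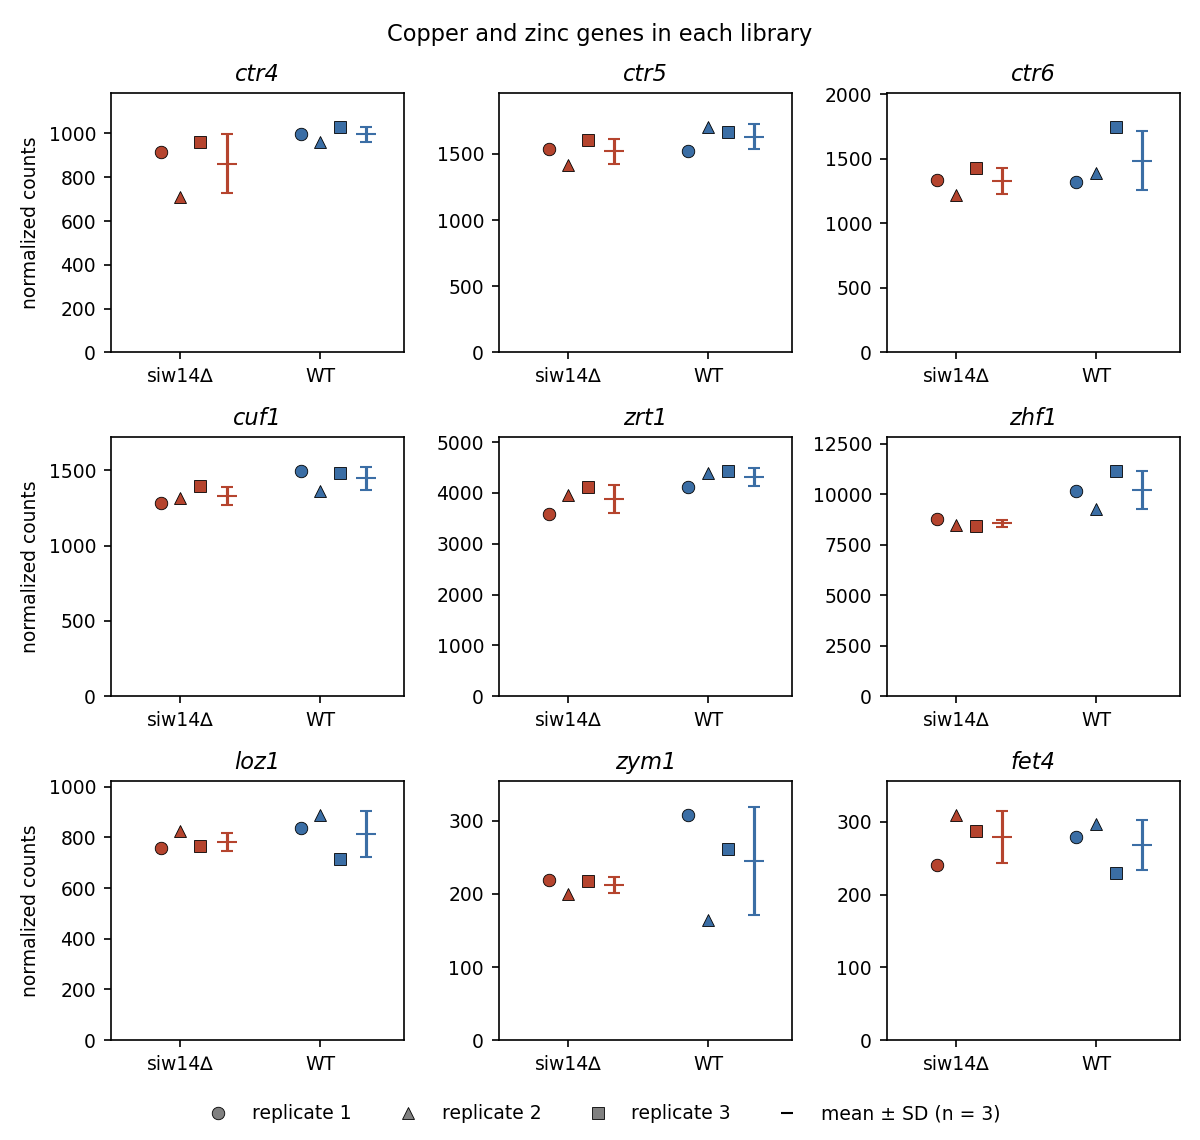
Normalized counts (linear axes from 0) of the 9 copper and zinc genes in each of 3 *siw14*∆ and 3 wild-type libraries, with one marker shape per replicate number and the mean and SD of each strain. The libraries of the strains overlap in 7 panels; in those of *zrt1* and *zhf1* every *siw14*∆ library lies below every wild-type library.

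Neither subunit transcript of the plasma membrane copper transporter was called as changed. Normalized counts of *ctr4*, whose product forms the transporter with Ctr5, were 916, 710.5 and 959 in the *siw14*∆ libraries, against 998, 959 and 1028 in the wild-type libraries. The low value was *siw14*∆ replicate 2, and the highest *siw14*∆ library came level with the lowest wild-type library. The means were 862 ± 133 in *siw14*∆ cells and 995 ± 34.6 in wild-type cells (SD, n = 3 each). The log2 fold change was -0.21 (SE 0.12, 95% interval -0.47 to 0.06, adjusted p = 0.216 in edgeR). Without *siw14*∆ replicate 2 the log2 fold change was -0.08. The transcript of its partner *ctr5* had 1536, 1413 and 1604 normalized counts in *siw14*∆ libraries, against 1523, 1700.3 and 1668 in wild-type libraries. The lowest *ctr5* library was again *siw14*∆ replicate 2, but the strains overlapped widely and the log2 fold change was -0.10 (SE 0.09, 95% interval -0.30 to 0.09, edgeR adjusted p = 0.400).

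The ratio of the subunit transcripts within a library does not depend on scaling. The log2 ratio of *ctr4* to *ctr5* counts was -0.74, -0.99 and -0.74 in *siw14*∆ libraries, against -0.61, -0.83 and -0.70 in wild-type libraries. Replicate 2 had the lowest ratio in each strain, and the ranges overlapped. The means, -0.83 ± 0.14 in *siw14*∆ cells and -0.71 ± 0.11 in wild-type cells, differed by -0.11 (exact two-sided permutation p = 0.4, n = 3 each, where 0.1 is the smallest p that 3 against 3 libraries allow).

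The vacuolar copper exporter and the copper regulator were not called either, although edgeR called both as lower once a trend over exon GC content was taken out (log2 fold change -0.39 for *ctr6* and -0.36 for *cuf1*). For *ctr6*, which returns stored copper to the cytosol, normalized counts were 1333, 1222 and 1429 in *siw14*∆ libraries, against 1324, 1390.3 and 1745 in wild-type libraries. Wild-type replicate 3 stood above the other 5 libraries. The log2 fold change was -0.16 (SE 0.11, 95% interval -0.42 to 0.09, edgeR adjusted p = 0.305), and without wild-type replicate 3 it was 0.0046. For *cuf1*, the activator of the copper transporter genes, *siw14*∆ libraries had 1283, 1313 and 1396 normalized counts, against 1495, 1360.5 and 1485 in wild-type libraries. Replicates 1 and 2 of *siw14*∆ lay below all wild-type libraries, and replicate 3 exceeded the lowest of them. The *cuf1* means of 1331 ± 58.3 in *siw14*∆ cells and 1447 ± 75.0 in wild-type cells gave a log2 fold change of -0.12 (SE 0.09, 95% interval -0.31 to 0.07, edgeR adjusted p = 0.304).

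The zinc carriers at the cell surface and at the endoplasmic reticulum were the only members of the set whose libraries did not overlap between the strains. The *zrt1* transcript, for the zinc importer that Loz1 represses, had 3578, 3966 and 4113 normalized counts in *siw14*∆ libraries, against 4116, 4392 and 4429 in wild-type libraries. The highest *siw14*∆ library and the lowest wild-type library nearly touched. Its means were 3885 ± 277 in *siw14*∆ cells and 4312 ± 171 in wild-type cells, and the log2 fold change of -0.15 was not called (SE 0.09, 95% interval -0.35 to 0.05, edgeR adjusted p = 0.229). In assembly ASM294v3, *zrt1* overlaps 114 bases of *sir2*, a histone deacetylase gene on the opposite strand, whose counts were higher in *siw14*∆ cells (273 ± 27.9, against 181 ± 26.6 in wild-type cells; log2 fold change 0.59, edgeR adjusted p = 0.0310). Of all loci, 16.7% were called as higher. Without *siw14*∆ replicate 2, without *siw14*∆ replicate 3 or with the abundance trend taken out, 0 loci were called as higher. The libraries were stranded, but the sources used here do not give the strand setting of the counting, and what the overlap adds to either count was not tested.

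The *zhf1* transcript, for the carrier that stores zinc in the endoplasmic reticulum, had the lowest unadjusted p of the 9 genes. Its normalized counts were 8752, 8460.3 and 8447 in *siw14*∆ libraries, against 10172, 9273 and 11148 in wild-type libraries. The *siw14*∆ libraries lay close together and below the whole wild-type range, in which replicate 3 was highest. The means were 8553 ± 172 in *siw14*∆ cells and 10198 ± 938 in wild-type cells, a log2 fold change of -0.25 (SE 0.10, 95% interval -0.47 to -0.04, unadjusted p = 0.0261, edgeR adjusted p = 0.0816). The call depended on the fit and was made in 3 of 15 alternatives. The *zhf1* transcript was called as lower by DESeq2 (log2 fold change -0.29, adjusted p = 0.0289), by edgeR without wild-type replicate 2 (-0.32, adjusted p = 0.0325) and by edgeR after a trend over exon GC content was taken out (-0.40, adjusted p = 0.0205). The other alternatives did not call it, among them edgeR without wild-type replicate 3 (-0.15, adjusted p = 0.289) and with the trend over abundance taken out (-0.02, adjusted p = 0.891). On ASM294v3, non-coding RNAs lie opposite 78.4% of the *zhf1* span (SPNCRNA.2967) and 93.8% of the *ctr6* span (SPNCRNA.5491). Neither RNA is among the loci of the deposited count table. Opposite 38.7% of the *ctr5* span lies SPNCRNA.923, with 15.7 ± 6.43 normalized counts in *siw14*∆ cells and 8.04 ± 4.13 in wild-type cells (log2 fold change 0.95, edgeR adjusted p = 0.158).

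The zinc import and storage transcripts were compared with each other within each library. The log2 ratio of *zrt1* to *zhf1* counts was -1.29, -1.09 and -1.04 in *siw14*∆ libraries, against -1.31, -1.08 and -1.33 in wild-type libraries. Each strain held libraries at both ends of the range. The difference of the means, -1.14 ± 0.13 in *siw14*∆ cells and -1.24 ± 0.14 in wild-type cells, was 0.10 (exact two-sided permutation p = 0.4, n = 3 each).

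The zinc regulator, the metallothionein and the low-affinity transporter had overlapping libraries. The *loz1* transcript, for the zinc-responsive repressor, had 758, 823 and 764 normalized counts in *siw14*∆ libraries, against 837, 889 and 714 in wild-type libraries. Wild-type libraries were both the highest and the lowest, and the log2 fold change was -0.06 (SE 0.11, 95% interval -0.30 to 0.19, edgeR adjusted p = 0.724). The *zym1* metallothionein transcript had 219, 200.4 and 218 normalized counts in *siw14*∆ libraries, against 308, 164 and 262 in wild-type libraries. The wild-type range enclosed all *siw14*∆ libraries, and the coefficient of variation was 4.88% in *siw14*∆ cells and 30.2% in wild-type cells. Its log2 fold change of -0.20 was the least precise of the 9 (SE 0.21, 95% interval -0.66 to 0.25, edgeR adjusted p = 0.481), and leaving out wild-type replicate 1 gave 0.01 and leaving out wild-type replicate 2 gave -0.43. For *fet4*, the iron and zinc transporter gene, the *siw14*∆ libraries had 240.2, 309.7 and 287 normalized counts, against 279, 297 and 229.6 in the wild-type libraries. The strains interleaved, with a log2 fold change of 0.06 (SE 0.15, 95% interval -0.28 to 0.39, edgeR adjusted p = 0.799).

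**Figure D2:**
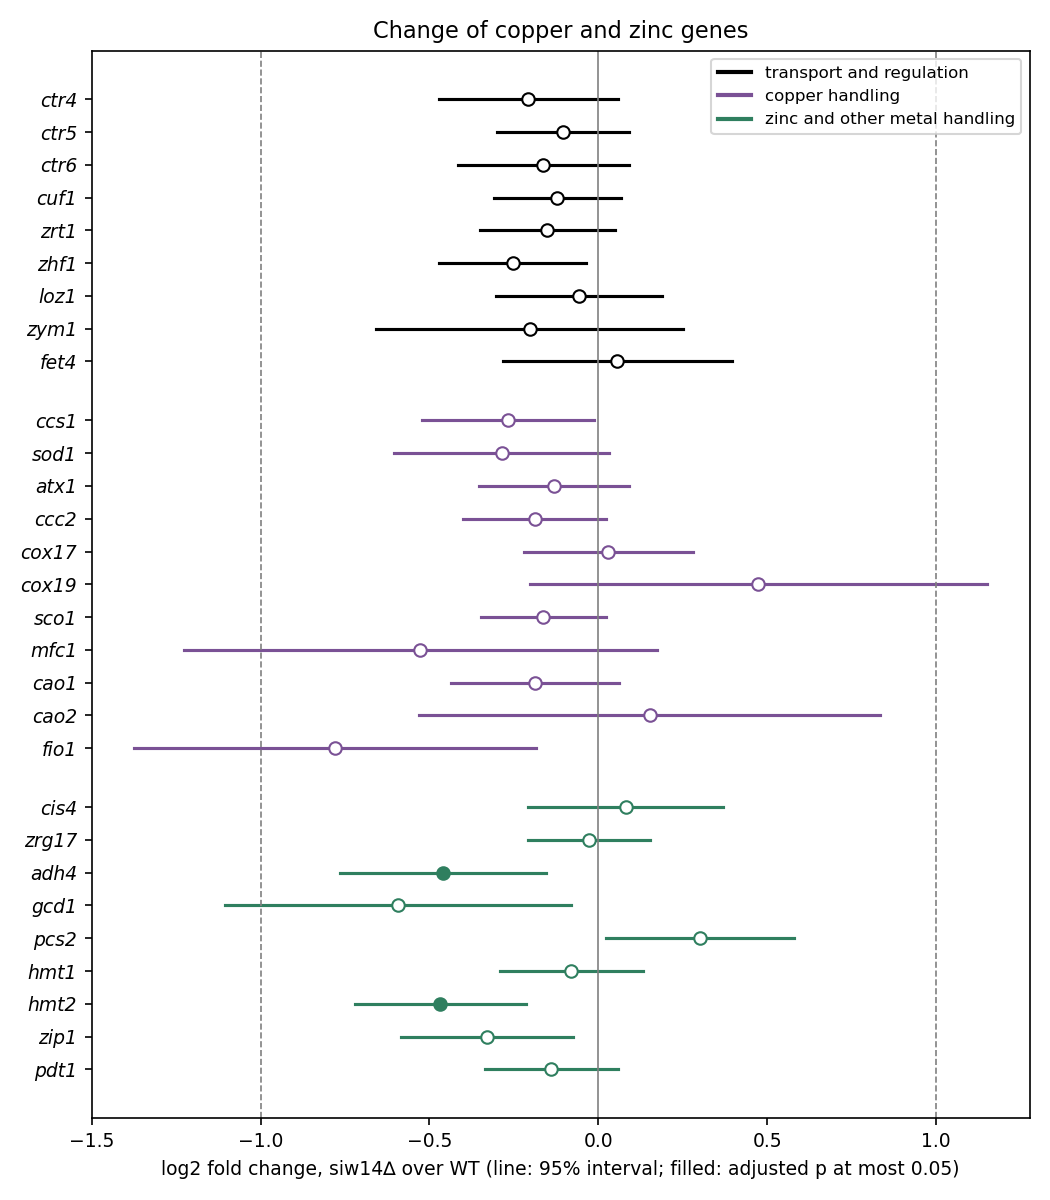
Log2 ratio of *siw14*∆ to wild type on the horizontal axis, with 95% intervals for the 9 transport and regulation genes and 20 other genes of copper, zinc and other metal handling. Filled points mark an adjusted p of at most 0.05 and dashed lines a 2-fold change. The 9 genes sit between -0.25 and 0.06 with open points; the filled points are *adh4* and *hmt2*.

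Levels are compared between genes as RPKM (reads per kilobase of exon, scaled to library size), with exon lengths from ASM294v3. The zinc carrier gene *zhf1* was highest, at 349.9 ± 7.04 RPKM in *siw14*∆ cells and 417 ± 38.4 RPKM in wild-type cells, above 92.6% of the 4890 coding loci that passed the filter. Next came *zrt1* (131 ± 9.35 RPKM in *siw14*∆ cells, 145.8 ± 5.78 in wild-type cells) and *ctr6* (121 ± 9.44 RPKM in *siw14*∆ cells, 135.8 ± 20.7 in wild-type cells), the one pair of neighbours in this order whose libraries overlapped. The copper transporter subunits followed, *ctr5* at 94.9 ± 6.06 RPKM in *siw14*∆ cells and 102 ± 5.91 in wild-type cells, and *ctr4* at 69.5 ± 10.7 RPKM in *siw14*∆ cells and 80.2 ± 2.79 in wild-type cells. The regulators were lower than the transporters they are known to control. The level of *cuf1* was 45.4 ± 1.99 RPKM in *siw14*∆ cells and 49.4 ± 2.56 in wild-type cells, and that of *loz1* was 18.1 ± 0.836 RPKM in *siw14*∆ cells and 18.8 ± 2.08 in wild-type cells. The metallothionein gene *zym1* lay between the regulators, at 28.9 ± 1.41 RPKM in *siw14*∆ cells and 33.3 ± 10.04 in wild-type cells. The lowest was *fet4*, at 6.99 ± 0.890 RPKM in *siw14*∆ cells and 6.72 ± 0.870 in wild-type cells, above 9.90% of coding loci. The span from *fet4* to *zhf1* is far wider than any difference between the strains.

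**Figure D3:**
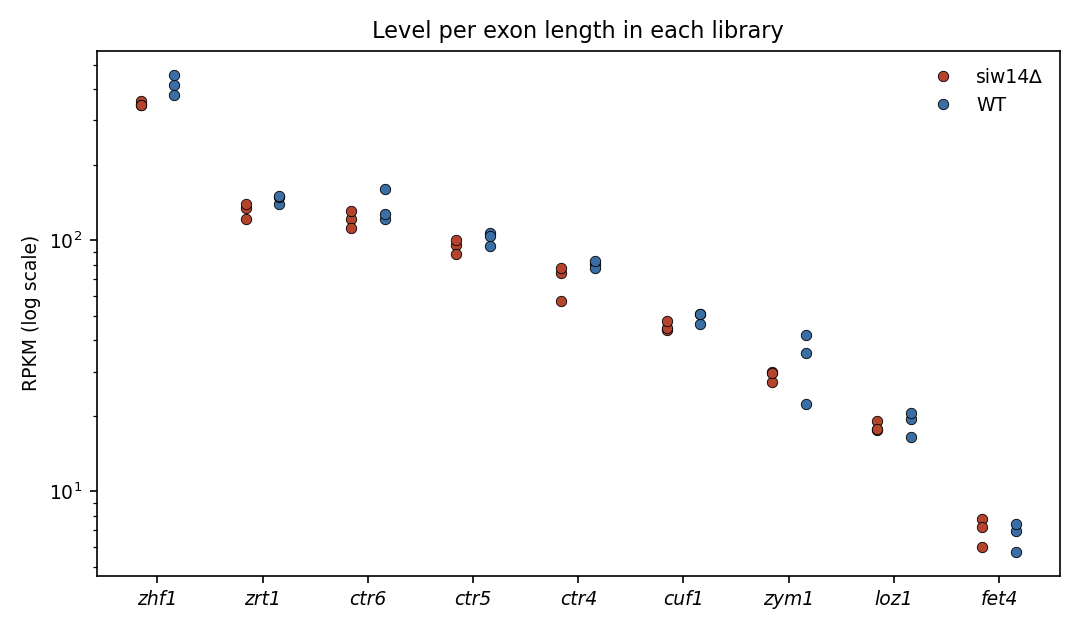
RPKM (log axis) of the 9 genes in the 3 *siw14*∆ and 3 wild-type libraries, ordered by level. The order runs down to *fet4* at 6.99 RPKM in *siw14*∆ cells from *zhf1* at 349.9 RPKM, and the points of the strains lie close together at each gene.

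Other genes of copper, zinc and other metal handling were taken as a list of 25 symbols. It includes copper chaperones, copper oxidases, the superoxide dismutase *sod1*, zinc carriers of the secretory pathway and genes of heavy metal tolerance. Genes tied to other metals were listed with those of zinc, so the list goes beyond copper and zinc. Of the 25 symbols, 22 matched a symbol of the annotation and 20 passed the filter. In edgeR 0 of the 20 were higher and 2 were lower, with 18 not passing, beside the 16.7% and 4.99% of all loci given above, and the median log2 fold change was -0.17. The first of the called genes, *adh4* (SPAC5H10.06c), encodes an alcohol dehydrogenase that Loz1 is known to repress together with *zrt1*. Its normalized counts were 3816, 4568 and 4148 in *siw14*∆ libraries, against 6783, 4525 and 5923 in wild-type libraries. Wild-type replicate 2 lay within the *siw14*∆ range, and the log2 fold change was -0.46 (SE 0.14, 95% interval -0.76 to -0.15, edgeR adjusted p = 0.0407). The second, *hmt2* (SPBC2G5.06c), encodes a mitochondrial sulfide:quinone oxidoreductase needed for cadmium tolerance. It had 7934, 7595 and 8516 normalized counts in *siw14*∆ libraries, against 12710.4, 9631 and 10910.0 in wild-type libraries. All *hmt2* values were lower in *siw14*∆ cells, with a log2 fold change of -0.47 (SE 0.12, 95% interval -0.72 to -0.21, edgeR adjusted p = 0.0262). Both calls were lost when any one *siw14*∆ library or wild-type replicate 3 was left out, which gave 0 calls in the list, beside 379, 1 and 1 over all loci without *siw14*∆ replicates 1, 2 and 3 and 684 without wild-type replicate 3. Leaving out wild-type replicate 1 gave 1 call of 20, beside 14.3% of all loci, and leaving out wild-type replicate 2 gave 7 of 20, beside 32.9% of all loci.

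The loci whose pattern over the 6 libraries was most like that of a gene of the set were found by Pearson's r of log2 CPM (counts scaled to library size), over the 5773 other loci. For *ctr4* the nearest were SPCC306.11 (r = 0.993), *cmt2* (0.977) and *ksh1* (0.958). Its partner *ctr5* ranked 179 (r = 0.789) and the other copper genes ranked 421 (*ctr6*, r = 0.691) and 541 (*cuf1*, r = 0.656). For *zrt1* the nearest were *sno20* (r = 0.989), SPCC297.05 (0.967) and *bun62* (0.953). The gene of the set nearest to *zrt1* was *cuf1*, at rank 358 (r = 0.681), ahead of the zinc carrier *zhf1* at rank 733 (r = 0.580), while the repressor gene *loz1* had r = 0.153. These are descriptions over 6 points that share their libraries and depth.

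**Figure D4:**
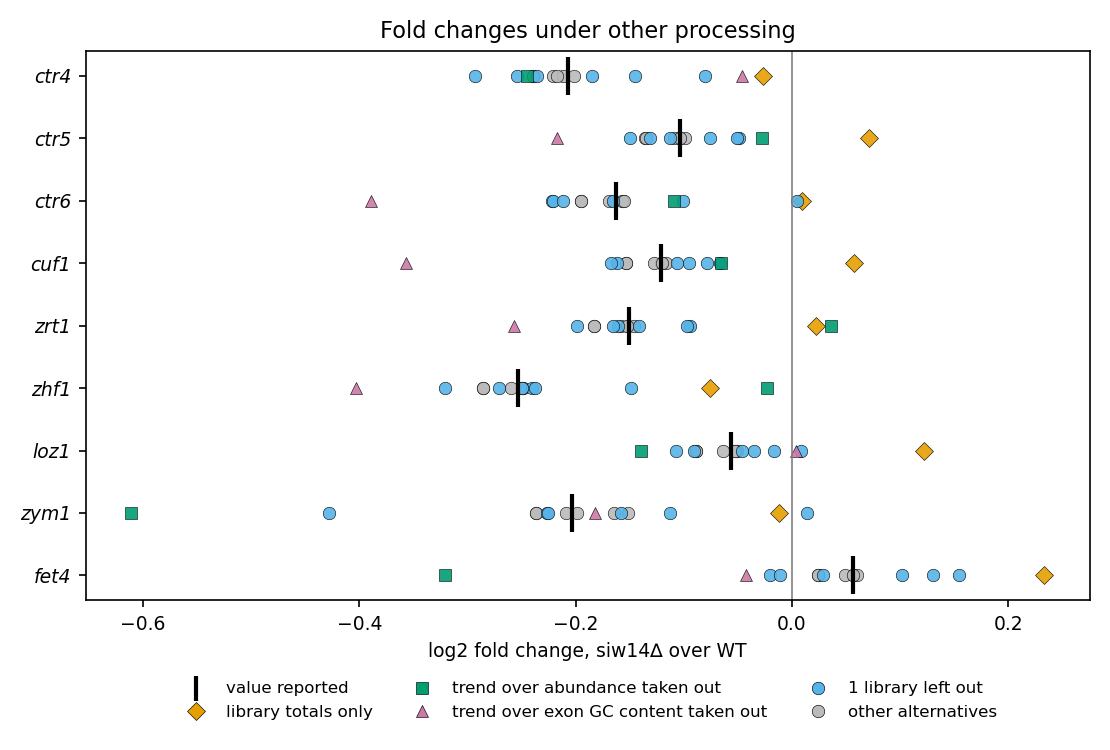
Log2 ratio of *siw14*∆ to wild type for each of the 9 genes under every alternative fit, normalization, filter and left-out library, with the value as reported marked. Most values lie below 0, with those scaled by library totals alone farthest to the right for several genes; *ctr4* and *zhf1* are the genes whose value kept its sign under every alternative run.

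Exon GC content was the alternative with the most calls among the 9 genes. After a trend of each library over GC content was taken out in edgeR, 4 were called as lower in *siw14*∆ cells: *ctr6* (log2 fold change -0.39, adjusted p = 0.0231), *cuf1* (-0.36, adjusted p = 0.0338), *zrt1* (-0.26, adjusted p = 0.0287) and *zhf1* (-0.40, adjusted p = 0.0205). Their exon GC contents were 34.8%, 34.8%, 36.7% and 36.2%, beside a median of 37.2% over coding loci. Also below that median, *ctr5* (36.6%) was not called in this fit (-0.22, edgeR adjusted p = 0.0647), and neither was *fet4* (36.9%, log2 fold change -0.04). The copper transporter gene *ctr4*, with the highest GC content of the set at 41.9%, had a log2 fold change of -0.05 in the same fit. Under this trend 867 of all loci were called as higher and 883 (15.3%) as lower, against 964 and 288 without it. The part of GC content in the measured differences was not tested.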

How the data were processed

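RNA was extracted with hot acid phenol and made into stranded poly(A)+ libraries, 3 per strain, sequenced as paired reads. With HISAT2 2.1.0 the authors aligned reads to ASM294v2, and HTSeq 0.10.0 gave the counts of each gene, per the submitters' processing notes and methods, and deposited raw counts. A second deposited table holds the authors' DESeq2 results (means, fold changes, p-values) and was not used. Lines that name no gene, 5 in number and filled only in the *siw14*∆ columns, were left out. They held 35.8%, 31.6% and 34.7% of the named and nameless counts together in *siw14*∆ replicates 1, 2 and 3. No such share is known for the wild-type libraries, whose entries are empty.

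Counts were tested with edgeR 4.0.16 in R 4.3.3 (filterByExpr, TMM factors, quasi-likelihood test, all 6 libraries, no covariate), with Benjamini-Hochberg adjustment over 5774 loci and a threshold of 0.05. The procedure was tested on simulated data. Normalized counts are counts over the effective library size, rescaled to the mean library. DESeq2 1.42.0, limma-voom (limma 3.58.1), other scalings, filters and thresholds, a replicate block, left-out libraries, and loess trends (span 0.3) over abundance and GC content were alternatives. Exon length, GC content, overlaps and promoters came from RefSeq ASM294v3, in which 6836 of 6988 IDs matched. All 9 genes were reported, and from the wider list those past the threshold. The genes and lists were chosen with earlier results of these data known.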

Additional observations from a re-analysis of the deposited data

How the results depend on the processing

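Among the alternative values for the 9 genes, 115 kept their direction and side of the threshold, 6 gained a call, 0 lost one and 14 changed sign. The count of the 9 genes called (0 in edgeR) was 1 in DESeq2 and 4 with the GC trend taken out, and ran between 0 and 1 with a library left out. In the list of 20 handling genes it was 2, and became 5 in DESeq2, 4 with DESeq2 size factors, 5 with the GC trend, 0 with the abundance trend, 0 at an adjusted p of at most 0.01 and between 0 and 7 with a library left out. With library totals alone the list had 1 higher and 1 lower call, and *adh4* was not called (edgeR adjusted p = 0.106). Of 15 alternatives, 7 called *adh4* and 10 called *hmt2*. Over all loci the count of 1252 (964 higher, 288 lower) became 1 with the abundance trend (1599 at an unadjusted p under 0.05), 1 at an adjusted p of at most 0.01, and between 1 and 1921 with a library left out: 379, 1 and 1 without *siw14*∆ replicates 1, 2 and 3, and 833, 1921 and 684 without wild-type replicates 1, 2 and 3. The split of higher and lower calls was 1002 and 703 in DESeq2, 903 and 495 with DESeq2 size factors, 1368 and 31 with library totals alone, and 867 and 883 with the GC trend. The cause was not tested.

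Log2 fold changes that turned positive with library totals alone were 0.071 for *ctr5*, 0.0092 for *ctr6*, 0.058 for *cuf1*, 0.022 for *zrt1* and 0.12 for *loz1*. With the abundance trend *zrt1* was at 0.036 and *fet4* at -0.32, and with the GC trend *loz1* was at 0.0040 and *fet4* at -0.042. The abundance trend also moved *zym1* from -0.20 to -0.61 (edgeR adjusted p = 0.149), the lowest value of the 9 genes under any alternative. With a library left out, *ctr6* ran between -0.22 and 0.0046, *loz1* ran between -0.11 and 0.0081, *zym1* ran between -0.43 and 0.014 and *fet4* ran between -0.020 and 0.15. Ranks by level per length changed for 7 of the 9 genes when counts were not divided by exon length.

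The labels number the replicates and do not say whether same-numbered libraries were paired. Deviations of same-numbered libraries correlated at -0.26, 0.18 and -0.16, and those of the other pairs at -0.36 to 0.44. With 3 libraries per strain, these values cannot decide whether the numbers pair the samples. With the replicate block in edgeR, 0 of the 9 genes, 1 gene of the list (*adh4* was lost) and 1163 of all loci (1007 higher, 156 lower) were called. Not every library correlated best with its own number. With 3 libraries per strain, the 95% intervals had half-widths of 0.19 to 0.46 on the log2 scale, and differences smaller than these could not be resolved.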

Other observations

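Among the listed genes of copper, zinc and other metal handling, the following were chosen after their values were seen. The copper-dependent ferroxidase gene *fio1*, part of reductive iron uptake and known to be repressed by Cuf1 when copper is scarce, had 156, 275.1 and 152 normalized counts in *siw14*∆ libraries, against 467, 275.0 and 262 in wild-type libraries. The highest *siw14*∆ library, replicate 2, came level with wild-type replicate 2 and lay above wild-type replicate 3. Wild-type replicate 1 was far above the other libraries. The log2 fold change of -0.78 was the lowest of the list and not called (SE 0.27, edgeR adjusted p = 0.0594). The phytochelatin synthase gene *pcs2* had a log2 fold change of 0.30 (SE 0.13, edgeR adjusted p = 0.0996), with 659 ± 59.8 normalized counts in *siw14*∆ cells and 535 ± 65.3 in wild-type cells. The meiotic regulator gene *cuf2* had 0 counts in each *siw14*∆ library, against 1, 0 and 1 counts in wild-type libraries.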
